A study of Mus musculus with 8 samples.

Results

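Microglia are the resident macrophages of the brain, and in models of Alzheimer's disease (AD) a fraction of them takes on the disease-associated microglia (DAM) state. The 10 genes described here, Cst7, Clec7a, Itgax, Axl, Cd9, Cd63, Gpnmb, Lgals3, Spp1 and Igf1, encode surface and secreted proteins of that state. They were taken by symbol from the 55421 genes of the read-count table, and all 10 were found, each once. RNA-seq libraries came from microglia isolated from brains of C57BL/6 mice aged 6 months. The 4 groups of 2 libraries each were Calhm2 conditional knockout with AD (cKO/AD), Calhm2 intact with AD (WT/AD), Calhm2 conditional knockout without AD (cKO) and Calhm2 intact without AD (WT). The sources used here give neither the AD model nor the Cre driver, and whether both libraries of a group are from different animals is not said. The p-values therefore measure the spread between libraries, which may be technical in part.

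The protein made from Calhm2 belongs to the calcium homeostasis modulators, a family of large-pore membrane channels. The DAM state is known from mouse amyloid models, where microglia around plaques lower their homeostatic genes and raise genes of lipid handling, lysosomes and phagocytosis, the later part of the switch through the lipid receptor Trem2. The members fall into 3 kinds by role: receptors and adhesion molecules of the cell surface (Clec7a, Itgax, Axl), membrane proteins of the surface and of endosomes and lysosomes (Cd9, Cd63, Gpnmb), and secreted or luminal proteins (Cst7, Lgals3, Spp1, Igf1). The question was which of them were raised in AD and whether the rise was seen with Calhm2 deleted too.

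Library totals lay between 18218165 and 25774587 counts. Levels are given as CPM, counts scaled to a common library size, with that size adjusted by trimmed mean of M values (TMM). Calhm2 (ENSMUSG00000033033.10) stood at 2.5 and 1.56 CPM in cKO/AD, 16.4 and 13.7 CPM in the WT/AD libraries, 4.76 and 4.7 CPM in cKO, and 10.3 and 12.03 CPM in WT, so both knockout libraries lay below both libraries with the gene intact, with and without AD (log2 fold change -2.89, adjusted p = 0.01, in AD and -1.24, adjusted p = 0.673, without). All 9 microglia markers, P2ry12, Tmem119 and Csf1r among them, were detected in every library. Their summed level was 12732 to 18088 CPM in cKO/AD, 26023 to 27518 CPM in WT/AD, 20376 to 23727 CPM in cKO and 33859.8 to 37319 CPM in WT. The cKO/AD libraries stood apart from the others. Across tested genes the 2 libraries correlated at r = 0.843 in cKO/AD, against 0.93 to 0.945 in the other groups (log2 CPM), and cKO/AD replicate 1 had 18693 genes with a count and 4.73% mitochondrial counts, against 22088 to 25988 genes and 1.37% to 2.36% in the other 7 libraries.

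Cst7 and Gpnmb were lower, and Spp1 and Igf1 higher, in both cKO/AD libraries than in both WT/AD libraries, and the promoters of these 4 are shown as a pair from each direction. The 250 bases before the start of each gene, 5′ to 3′ on the gene's strand, are from RefSeq (GRCm38.p6). Capitals mark matches, on either strand, to an AP-1 motif (TGANTCA), a PU.1 core (GAGGAAG) or a TATA box (TATAAA); an E-box form bound by MITF and TFE factors (TCACGTG) was searched too.
Cst7 (chr2:150570165-150570414, plus strand): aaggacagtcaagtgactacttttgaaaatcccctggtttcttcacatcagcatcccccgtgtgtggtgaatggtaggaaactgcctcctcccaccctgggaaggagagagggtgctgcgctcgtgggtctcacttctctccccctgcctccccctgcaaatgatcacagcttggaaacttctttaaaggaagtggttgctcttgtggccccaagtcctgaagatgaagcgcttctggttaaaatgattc
Gpnmb (chr6:49036268-49036517, plus strand): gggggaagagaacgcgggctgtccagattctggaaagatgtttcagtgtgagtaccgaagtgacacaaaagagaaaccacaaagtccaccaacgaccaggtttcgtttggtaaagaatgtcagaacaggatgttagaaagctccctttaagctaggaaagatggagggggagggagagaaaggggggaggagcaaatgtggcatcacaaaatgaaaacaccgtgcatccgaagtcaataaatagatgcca
Spp1 (chr5:104434861-104435110, plus strand): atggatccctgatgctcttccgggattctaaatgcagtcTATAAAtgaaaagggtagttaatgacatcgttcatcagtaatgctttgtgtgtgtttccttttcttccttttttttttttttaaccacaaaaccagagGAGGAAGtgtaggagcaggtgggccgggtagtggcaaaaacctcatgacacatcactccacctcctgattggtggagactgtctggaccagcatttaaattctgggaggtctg
Igf1 (chr10:87860861-87861110, plus strand): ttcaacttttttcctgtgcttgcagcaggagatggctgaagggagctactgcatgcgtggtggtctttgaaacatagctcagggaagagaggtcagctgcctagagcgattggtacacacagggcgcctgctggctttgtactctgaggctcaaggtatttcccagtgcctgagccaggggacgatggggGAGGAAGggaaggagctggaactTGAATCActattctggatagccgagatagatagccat
Spp1 has a second listed start, whose window (chr5:104435942-104436191) held none of the motifs. Of the 4 windows shown, those of Spp1 and Igf1 held a PU.1 core and those of Cst7 and Gpnmb none of the motifs. Igf1 held an AP-1 motif as well, and Spp1 the TATA box letters, 211 to 206 bases before the start. Itgax, Axl and Lgals3, not shown, were also lower in both cKO/AD libraries than in both WT/AD libraries. Of these, Axl held a PU.1 core and Itgax an AP-1 motif, so the motifs did not follow the direction. The table held 12 windows for the 10 members. The PU.1 core was in 4 of them (Axl, Cd63, Igf1 and Spp1) and in 10.6% of all 32851 promoters of that length. The AP-1 motif was in 2, those of Igf1 and Itgax, and in 6.75% of all promoters. The TATA box letters were in 1 and in 12.4% of all, and the E-box form in 0 and in 3.13% of all. These matches describe the letters of the windows and name no bound factor.

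Clec7a (ENSMUSG00000079293.11), which encodes dectin-1, a receptor for beta-glucans, stood at 109 and 84.6 CPM in cKO/AD, 84.6 and 92.9 CPM in the WT/AD libraries, 10.6 and 12.2 CPM in cKO, and 14.1 and 17.1 CPM in WT. All 4 AD libraries lay above all 4 libraries without AD, and the cKO/AD and WT/AD libraries overlapped. Itgax (ENSMUSG00000030789.9), the gene of the integrin alpha chain CD11c, stood at 12.3 and 15.7 CPM in cKO/AD, 32.4 and 24.5 CPM in the WT/AD libraries, 4.46 and 4.48 CPM in cKO, and 2.71 and 4.48 CPM in WT. Both cKO/AD libraries lay below both WT/AD libraries yet above every library without AD. Axl (ENSMUSG00000002602.16), a receptor tyrosine kinase that binds Gas6 on dying cells, stood at 135 and 85.6 CPM in cKO/AD, 198 and 217 CPM in the WT/AD libraries, 27.9 and 42.7 CPM in cKO, and 44.2 and 53.6 CPM in WT. Its order was the same as that of Itgax, with cKO/AD between WT/AD and the groups without AD.

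Cd9 (ENSMUSG00000030342.8), a tetraspanin of the plasma membrane, stood at 2259 and 1774 CPM in cKO/AD, 2093 and 2340.5 CPM in the WT/AD libraries, 1054 and 958 CPM in cKO, and 1236 and 1186 CPM in WT. Its AD libraries lay above the others, and those of cKO/AD and WT/AD overlapped. Cd63 (ENSMUSG00000025351.14), a tetraspanin of late endosomes and lysosomes, stood at 977 and 599.8 CPM in cKO/AD, 676 and 658 CPM in the WT/AD libraries, 253 and 225 CPM in cKO, and 341 and 335 CPM in WT. Here too the AD libraries were all above the rest and overlapped between genotypes, with the 2 cKO/AD libraries on either side of WT/AD. The annotated pseudogene Cd63-ps had between 19 and 103 counts per library, against 5100 to 17217 counts for Cd63. Gpnmb (ENSMUSG00000029816.10), a transmembrane glycoprotein of phagolysosomes, stood at 5.39 and 22.4 CPM in cKO/AD, 61.2 and 62.0 CPM in the WT/AD libraries, 5.2 and 3.55 CPM in cKO, and 4.13 and 6.19 CPM in WT. Replicate 1 of cKO/AD was within the range of WT, and replicate 2 lay between WT and WT/AD.

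Cst7 (ENSMUSG00000068129.5), which encodes cystatin F, an inhibitor of lysosomal cysteine proteases, stood at 278 and 202 CPM in cKO/AD, 550.4 and 514 CPM in the WT/AD libraries, 11.1 and 5.27 CPM in cKO, and 3.61 and 3.68 CPM in WT. Every AD library was far above every library without AD, and the cKO/AD libraries were below those of WT/AD. Lgals3 (ENSMUSG00000050335.17), the gene of galectin 3, a galactoside-binding lectin, stood at 5.9 and 15.3 CPM in cKO/AD, 47.4 and 46.1 CPM in the WT/AD libraries, 20.6 and 19.9 CPM in cKO, and 25.8 and 32.1 CPM in WT. Both cKO/AD libraries were below all the others, and both WT/AD libraries above. Spp1 (ENSMUSG00000029304.14), which encodes the secreted ligand osteopontin, stood at 414 and 375 CPM in cKO/AD, 218 and 262 CPM in the WT/AD libraries, 52.3 and 58.6 CPM in cKO, and 101 and 96.1 CPM in WT. The 4 groups did not overlap, with cKO/AD highest and cKO lowest. Igf1 (ENSMUSG00000020053.18), an insulin-like growth factor gene, stood at 150.1 and 47.5 CPM in cKO/AD, 39.4 and 35.8 CPM in the WT/AD libraries, 17.0 and 15.5 CPM in cKO, and 19.0 and 9.01 CPM in WT. The AD libraries were above the rest, with cKO/AD replicate 1 far above cKO/AD replicate 2, which was itself above both WT/AD libraries.

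**Figure D1:**
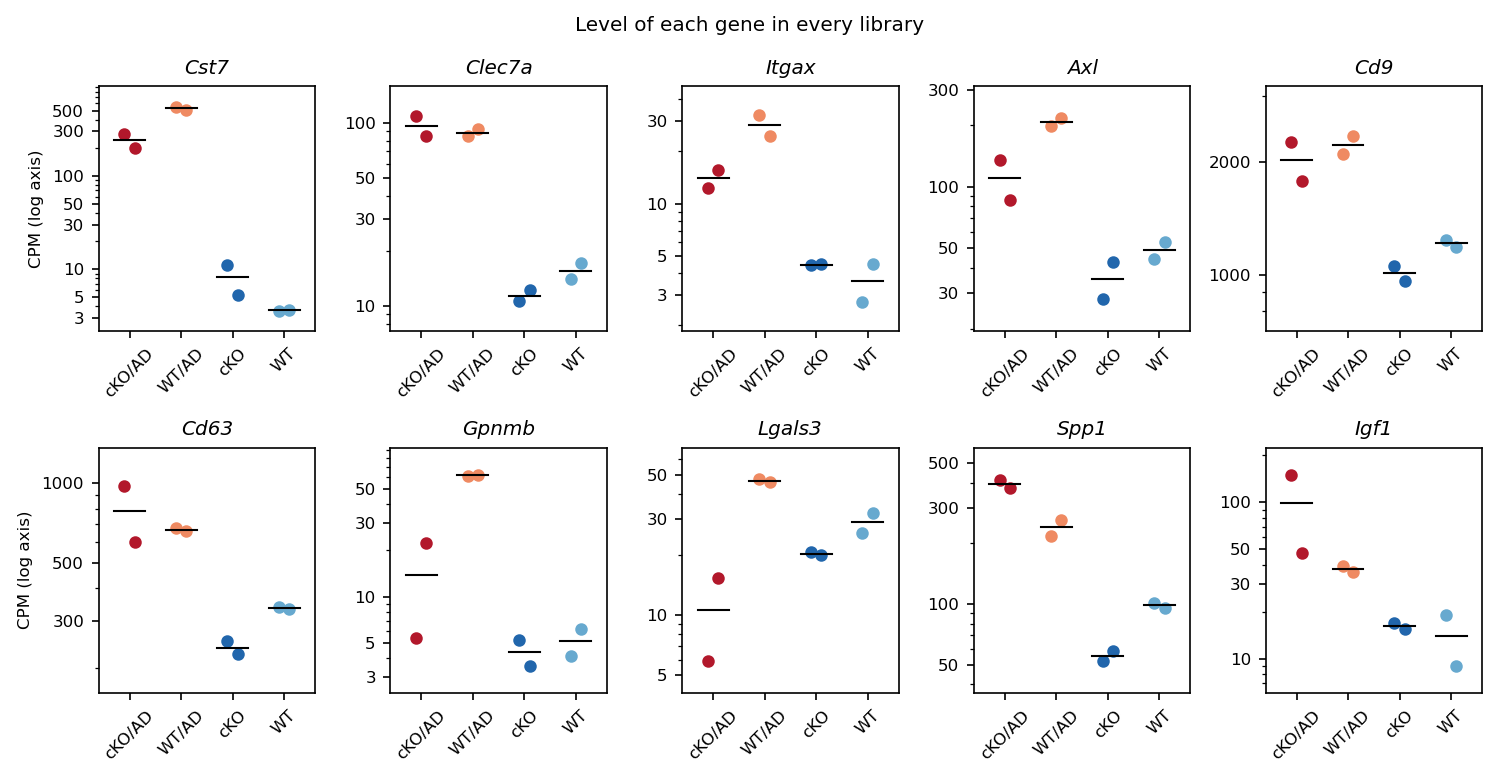
Level of each of the 10 genes (CPM, log axis) in the 8 libraries, with groups in the order cKO/AD, WT/AD, cKO, WT; points are libraries and lines are group means. Cst7 reached 550.4 CPM in a WT/AD library against 3.61 CPM in a WT library, and Lgals3 had its lowest value, 5.9 CPM, in a cKO/AD library.

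With Calhm2 intact, all 10 members had a positive fold change in WT/AD against WT, with a median log2 fold change of 1.75, against 0 over all genes tested. Both WT/AD libraries lay above both WT libraries for all 10, as they did for 26.5% of all genes tested. Cst7 rose the most, to 532 ± 25.9 CPM in WT/AD against 3.64 ± 0.0461 CPM in WT (mean ± SD, n = 2), a log2 fold change of 7.19 (SE 0.429, adjusted p = 0.00203). Clec7a rose to 88.8 ± 5.89 CPM in WT/AD, against 15.6 ± 2.13 CPM in WT, a log2 fold change of 2.51 (SE 0.245, adjusted p = 0.0284). The other 8 did not pass an adjusted p of 0.05 over all 22089 genes tested by edgeR. In all, 2 of 10 members rose, where 0.0317% of all genes tested were called higher. Gpnmb had a log2 fold change of 3.58 (SE 0.657, adjusted p = 0.198), Itgax of 2.98 (SE 0.438, adjusted p = 0.127) and Axl of 2.08 (SE 0.301, adjusted p = 0.119). Igf1 was at 1.42, Spp1 at 1.29, Cd63 at 0.98, Cd9 at 0.87 and Lgals3 at 0.69 (adjusted p between 0.114 and 0.69).

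The number of members called in WT/AD against WT depended on the libraries that set the spread. All 4 groups shared 1 estimate of it, cKO/AD included. With the 4 libraries of WT/AD and WT alone, 9 of 10 members rose, all except Lgals3, where 3.61% of genes were called higher. The same 9 rose without cKO/AD replicate 1, where 1.93% of genes were called higher, and without cKO/AD replicate 2, where 1.86% were. With either WT library left out no member passed, and with any one of the cKO or WT/AD libraries left out only Cst7 did. In bulk libraries a change in the share of cells that express a gene and a change in its level per cell cannot be told apart. Endothelial, mural and neutrophil markers were lower in WT/AD than in WT: endothelial markers summed to 497 to 525 CPM in WT/AD and 1176 to 1236 CPM in WT, mural and fibroblast markers to 581 to 629 CPM in WT/AD and 1313 to 1320.1 CPM in WT, and neutrophil markers to 1103 to 1182 CPM in WT/AD and 2924 to 3019 CPM in WT. None of these markers was at 0 in those libraries, none of those tested passed, and their part in the disease effect was not tested.

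With Calhm2 deleted, 9 of the 10 members had a positive fold change in cKO/AD against cKO, with a median of 1.70 against -0.13 over all genes tested. Spp1 had the smallest adjusted p of the members and rose to 394 ± 27.8 CPM in cKO/AD against 55.5 ± 4.43 CPM in cKO, a log2 fold change of 2.83 (SE 0.194, adjusted p = 0.0117). Cst7 rose to 239.9 ± 54.3 CPM in cKO/AD, against 8.21 ± 4.16 CPM in cKO, a log2 fold change of 4.87 (SE 0.383, adjusted p = 0.0137). Clec7a rose to 96.9 ± 17.3 CPM in cKO/AD, against 11.4 ± 1.1 CPM in cKO, a log2 fold change of 3.09 (SE 0.251, adjusted p = 0.0137). So 3 of 10 members rose, where 0.0634% of all genes tested were called higher. Cd63 had a log2 fold change of 1.72 (SE 0.247, adjusted p = 0.0522), Axl of 1.64 (SE 0.298, adjusted p = 0.0556), Cd9 of 1.00 (SE 0.194, adjusted p = 0.059) and Igf1 of 2.60 (SE 0.562, adjusted p = 0.0631). Itgax was at 1.65 (SE 0.418, adjusted p = 0.0778) and Gpnmb at 1.67 (SE 0.616, adjusted p = 0.16). Lgals3 was at 10.6 ± 6.64 CPM in cKO/AD and 20.2 ± 0.517 CPM in cKO, the one negative value, -0.93 (SE 0.426, adjusted p = 0.235). With a correction for the GC content of transcripts, Lgals3 was at -0.30 (edgeR, adjusted p = 0.654). Cst7, Clec7a and Spp1 passed with that correction too, where 16 of 22089 genes were called higher.

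Without cKO/AD replicate 1, 9 members rose in cKO/AD against cKO, where 1.94% of genes were called higher. Without cKO/AD replicate 2, 8 members rose, where 13.3% of genes were called higher, and Lgals3 fell, where 24.6% of genes did (log2 fold change -1.78, adjusted p = 0.00147). In these fits the lone cKO/AD library was taken to vary like the other groups. Of the members, the cKO/AD libraries differed most for Gpnmb, whose log2 fold change was 2.36 (adjusted p = 0.00853) with replicate 2 alone and 0.30 (adjusted p = 0.523) with replicate 1 alone. With any one of the WT, cKO or WT/AD libraries left out, and with the 4 libraries of cKO/AD and cKO alone, no member passed. Microglia markers summed to 12732 to 18088 CPM in cKO/AD and 20376 to 23727 CPM in cKO, and oligodendrocyte markers to 8016 to 9842 CPM in cKO/AD and 6139 to 6469 CPM in cKO. Of the 9 oligodendrocyte markers, 5 had a negative fold change and 4 a positive one, with a median log2 fold change of -0.79. Border macrophage markers summed to 281 to 283 CPM in cKO/AD and 199.9 to 228 CPM in cKO, and neutrophil markers to 1020.1 to 1186 CPM in cKO/AD, with Cxcr2 at 0 in replicate 1, and 1419.7 to 1479 CPM in cKO. No marker of these 4 lists passed, and their part in the disease effect with Calhm2 deleted was not tested.

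The size of the rise in CPM, cKO/AD minus cKO, was set against that of WT/AD minus WT for each member. It was 349.6% of the rise with Calhm2 intact for Igf1, 239% for Spp1, 167% for Cd63, 117% for Clec7a and 101% for Cd9. For these 5 the mean rise with Calhm2 deleted was as large or larger. It was 47.4% for Axl, 43.9% for Cst7, 38.4% for Itgax and 16.9% for Gpnmb. For Lgals3 the ratio was -54.1%, since the mean was lower in cKO/AD than in cKO. Several rested on 1 cKO/AD library. With replicate 2 alone and with replicate 1 alone, the ratio was 132% and 567% for Igf1, 109.7% and 225% for Cd63, 100.1% and 134% for Clec7a and 76.4% and 125% for Cd9. It was 31.7% and 63.0% for Axl, 36.6% and 51.1% for Cst7, 45.4% and 31.4% for Itgax, 32.0% and 1.8% for Gpnmb and -27.8% and -80.5% for Lgals3, while Spp1 was at 225% and 253%. These ratios of means carry no test of their own. The interaction tests the difference in log2 fold change, not the difference in CPM. The CPM were not corrected for the GC content of transcripts. With that correction the log2 disease effect of Axl was 2.25 with Calhm2 deleted and 1.79 with it intact. It was 2.65 and 2.76 for Clec7a and 0.87 and 1.03 for Cd9, so the order turned for each. Cst7, Itgax, Gpnmb and Lgals3 stayed lower with Calhm2 deleted, and Igf1, Spp1 and Cd63 higher.

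**Figure D2:**
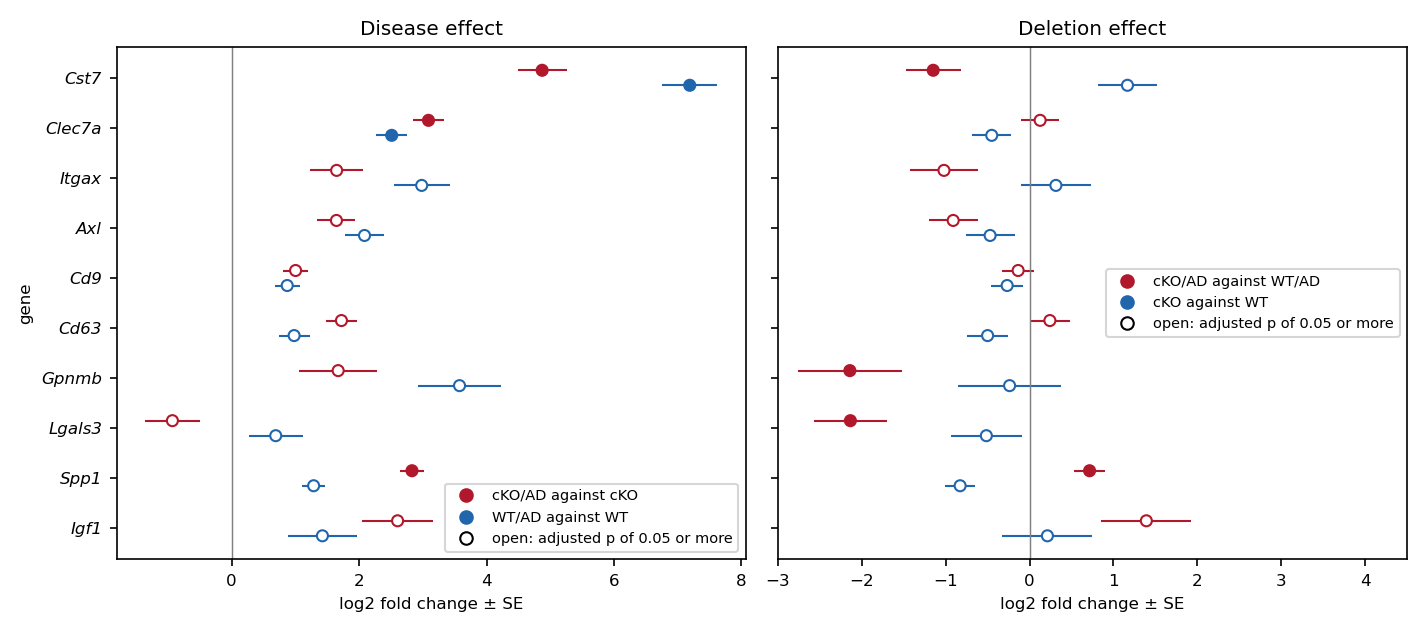
Log2 fold change ± SE of each of the 10 genes (edgeR) for the disease effect with Calhm2 deleted and intact, and for the deletion effect with and without AD; filled points have an adjusted p under 0.05. For Cst7 the disease effect was 4.87 with Calhm2 deleted and 7.19 with it intact, and Lgals3 with Calhm2 deleted was the one disease effect below 0.

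In cKO/AD against WT/AD, 3 members were called lower and 1 higher. Lgals3 fell to 10.6 ± 6.64 CPM in cKO/AD, against 46.7 ± 0.878 CPM in WT/AD, a log2 fold change of -2.14 (SE 0.438, adjusted p = 0.0164). Gpnmb fell to 13.9 ± 12.1 CPM in cKO/AD, against 61.6 ± 0.626 CPM in WT/AD, a log2 fold change of -2.14 (SE 0.616, adjusted p = 0.0482). Cst7 fell to 239.9 ± 54.3 CPM in cKO/AD, against 532 ± 25.9 CPM in WT/AD, a log2 fold change of -1.15 (SE 0.326, adjusted p = 0.0463). In the other direction, Spp1 rose to 394 ± 27.8 CPM in cKO/AD, against 240.2 ± 30.9 CPM in WT/AD, a log2 fold change of 0.72 (SE 0.182, adjusted p = 0.0321). That is 3 of 10 members that fell, where 10.2% of all genes tested were called lower, and 1 that rose, where 7.82% were called higher. The median over the members was -0.52, against -0.14 over all genes tested.

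Of the 6 members that did not pass in cKO/AD against WT/AD, Itgax at -1.02 (SE 0.408, adjusted p = 0.123) and Axl at -0.91 (SE 0.292, adjusted p = 0.0672) were lower in both cKO/AD libraries. Igf1 was higher in both, at 1.39 (SE 0.538, adjusted p = 0.112). Clec7a at 0.13 (SE 0.23, adjusted p = 0.742), Cd9 at -0.14 (SE 0.192, adjusted p = 0.661) and Cd63 at 0.24 (SE 0.241, adjusted p = 0.518) overlapped between the groups. Without cKO/AD replicate 1 the falls were those of Cst7, Axl, Gpnmb and Lgals3, where 14.1% of genes fell, and Spp1 rose, where 9.66% did. With replicate 2 left out instead, the falls were those of Cst7, Itgax, Gpnmb and Lgals3, where 27.9% of genes fell, and Cd63, Spp1 and Igf1 rose, where 17.3% did. Gpnmb and Spp1 lost the call with any 1 of the WT or cKO libraries left out, and Cst7 with either WT library left out. The log2 fold change of Lgals3 lay between -2.98 and -1.59 with any 1 library left out. No member passed with either WT/AD library left out, or with the 4 libraries of cKO/AD and WT/AD alone. Microglia markers summed to 12732 to 18088 CPM in cKO/AD and 26023 to 27518 CPM in WT/AD, and 3 of the 9 fell (Tmem119, Csf1r and Cx3cr1). Border macrophage markers, of which none of 8 passed, summed to 281 to 283 CPM in cKO/AD and 194 to 206 CPM in WT/AD. Oligodendrocyte markers summed to 8016 to 9842 CPM in cKO/AD and 5235 to 5817 CPM in WT/AD, with 5 of 9 lower and 1 higher. All of these markers were detected in every library, and the part of these cell types in the values of the members was not tested.

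Differences between cKO/AD and WT/AD moved with the GC content of transcripts. Among genes above a mean log2 CPM of 2, the median log2 fold change was 0.82 for 2834 genes under 45% GC, 0.37 for 3606 genes from 45 to 50%, -0.33 for 3509 genes from 50 to 55% and -1.34 for 3096 genes over 55%. For WT/AD against WT the medians of the same classes were -0.26, -0.20, 0.05 and 0.41. For cKO/AD against cKO they were 0.41, 0.16, -0.14 and -0.75. The members spanned 41.1% (Clec7a) to 57.5% (Lgals3) GC. The 3 that fell had 50.1% (Cst7), 51.2% (Gpnmb) and 57.5% (Lgals3), and Spp1, which rose, had 46.3%.

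With a correction for GC content, 0 of 10 members passed in cKO/AD against WT/AD, where 6.35% of genes were called in either direction. At an unadjusted p under 0.05 in the corrected fit 7 members passed, where 24.9% of genes did. Without the correction DESeq2 called 6 members and 30.9% of genes, and limma-voom 5 members and 21.8% of genes. Corrected log2 fold changes of Gpnmb (-2.05, adjusted p = 0.0782), Cst7 (-1.19, adjusted p = 0.0692) and Itgax (-1.07, adjusted p = 0.153) were close to the uncorrected ones. Those of Lgals3 (-0.89, adjusted p = 0.152) and Spp1 (0.23, adjusted p = 0.393) were nearer to 0. Axl went to 0.15 (adjusted p = 0.837) and Clec7a to -0.75 (adjusted p = 0.0771), each with the sign turned. Igf1 was at 1.03, Cd63 at 0.65 and Cd9 at -0.43 (adjusted p between 0.147 and 0.261). Cst7, Gpnmb, Itgax, Lgals3 and Cd9 were negative, and Spp1, Igf1 and Cd63 positive, in both fits.

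**Figure D3:**
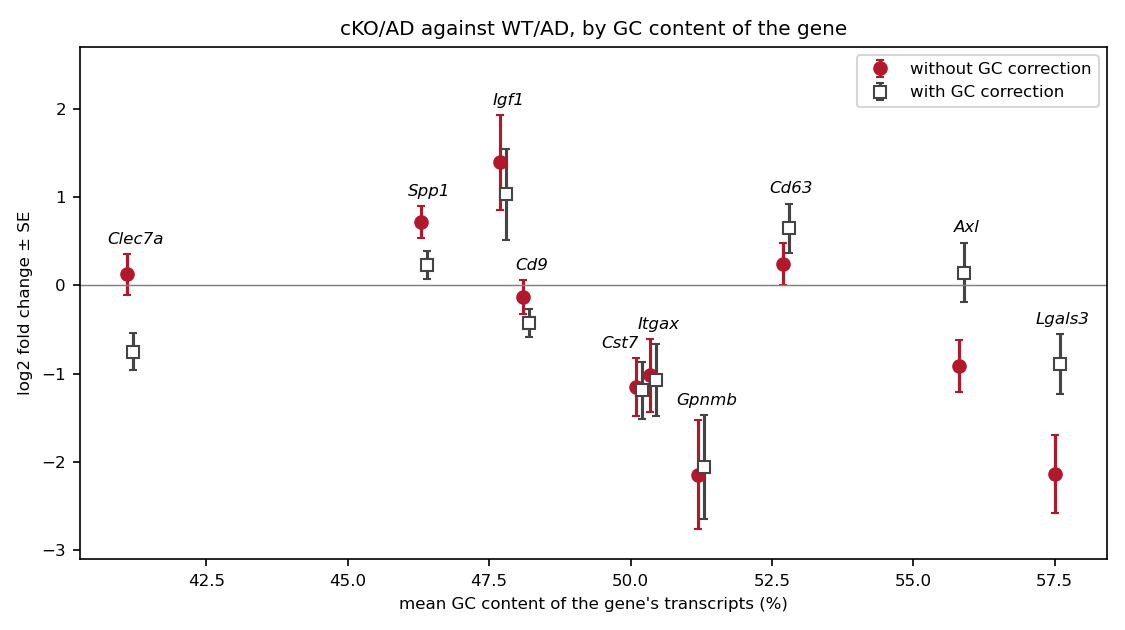
Log2 fold change ± SE of the 10 genes in cKO/AD against WT/AD, without and with GC correction, against the mean GC content of each gene's transcripts (Itgax, at the same 50.1% as Cst7, and all corrected points are drawn slightly to the right). Gpnmb and Cst7 stayed at -2.05 and -1.19 with the correction, while Axl moved to 0.15 and Lgals3 to -0.89.

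Without AD, the deletion moved no member past the threshold in cKO against WT, where 0% of all genes tested were called by edgeR. At an unadjusted p under 0.05, 2 members passed, Spp1 and Cst7, where 7.23% of genes did. DESeq2 called 1, Spp1, and 1.87% of genes, and limma-voom 0 and 0.0136% of genes. Spp1 was at 55.5 ± 4.43 CPM in cKO and 98.4 ± 3.35 CPM in WT (log2 fold change -0.83, SE 0.183, adjusted p = 0.422). Without cKO/AD replicate 1 or 2 it fell, with an adjusted p of 0.0438 or 0.0408, where 0.896% or 0.969% of genes were called lower. Cst7 was at 8.21 ± 4.16 CPM in cKO and 3.64 ± 0.0461 CPM in WT, both libraries higher in cKO (log2 fold change 1.17, SE 0.354, adjusted p = 0.587). In all 7 of 10 members had a negative fold change, with a median of -0.36 against -0.02 over all genes tested. So did 36 of 40 other DAM genes, with a median of -0.41, and all 9 microglia markers, with a median of -0.53. None of these passed. The microglia markers summed to 20376 to 23727 CPM in cKO and 33859.8 to 37319 CPM in WT. Endothelial markers also differed, with a summed level of 376 to 408 CPM in cKO and 1176 to 1236 CPM in WT over 10 markers, all detected in every library. Mural and fibroblast markers summed to 417 to 459 CPM in cKO, with Tagln at 0 in replicate 1, and 1313 to 1320.1 CPM in WT. Neutrophil markers summed to 1419.7 to 1479 CPM in cKO and 2924 to 3019 CPM in WT. The part of these cells in the values of the members was not tested.

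The interaction asked whether the disease effect differed with the deletion. It passed for 0 of 10 members, where 0.0272% of all genes tested were called in either direction. At an unadjusted p under 0.05, 3 members passed, Cst7, Lgals3 and Spp1, where 21.9% of genes did. With the GC correction these were Cst7, Itgax, Cd63, Gpnmb and Spp1, where 16.9% of genes did. DESeq2 called 2, Cst7 and Spp1, and 13.9% of genes, and limma-voom 1, Spp1, and 3.1% of genes. The disease effect of Spp1 was larger with Calhm2 deleted by 1.54 on the log2 scale (SE 0.258, adjusted p = 0.0563). That of Cst7 differed by -2.32 (SE 0.482, adjusted p = 0.0642), that of Gpnmb by -1.90 (SE 0.856, adjusted p = 0.243) and that of Lgals3 by -1.62 (SE 0.599, adjusted p = 0.174). Itgax was at -1.33, Igf1 at 1.18, Cd63 at 0.74, Clec7a at 0.58, Axl at -0.44 and Cd9 at 0.13 (adjusted p between 0.229 and 0.837). Without cKO/AD replicate 1, Cst7 and Spp1 passed, where 11.7% of genes did. With replicate 2 left out instead, 7 members passed, where 34.9% of genes did: Cst7, Itgax, Gpnmb and Lgals3 below 0, and Cd63, Spp1 and Igf1 above. In both, Cst7 was negative (-2.57 and -2.10) and Spp1 positive (1.47 and 1.61).

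Per kilobase of exon, which allows levels of different genes to be compared, Cd9 was the highest member in every group, at 987 CPM per kb in cKO/AD, 1084 in WT/AD, 492 in cKO and 593 in WT. Cst7 ranked 2 of 10 in both AD groups, at 243 CPM per kb in cKO/AD and 539.6 in WT/AD, against rank 5 in cKO, where its libraries overlapped those of Lgals3 and Axl, and rank 7 in WT. In cKO/AD the libraries of Cst7, Spp1 (239 CPM per kb) and Cd63 (214 CPM per kb) overlapped, so their order is not settled. In WT/AD the level of Cst7 stood clear of Cd63 (181 CPM per kb) and Spp1 (146 CPM per kb). Clec7a and Axl came next in both AD groups, Clec7a first in cKO/AD (36.7 against 21.9 CPM per kb) and Axl first in WT/AD (41.2 against 33.6 CPM per kb). Gpnmb was lowest in cKO/AD, at 2.14 CPM per kb between libraries at 0.828 and 3.44, a span that held both Itgax libraries, and Igf1 was lowest in WT/AD, at 3.8 CPM per kb.

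Among 40 other genes of the DAM programme, all tested, 3 rose in WT/AD against WT and none fell. Over all genes tested 0.0317% were called higher. The 3 were Lpl, the lipoprotein lipase gene, Apoe, which encodes a lipid carrier, and the chemokine gene Ccl3. Their log2 fold changes were 2.23, 1.88 and 3.08, and the median of the list was 0.80. None of the 3 passed with the replicate block (adjusted p = 0.0669 for each) or with any 1 of the WT, cKO or WT/AD libraries left out (adjusted p between 0.0978 and 0.946), and with a correction for GC content Apoe did not pass (1.33, adjusted p = 0.118). In cKO/AD against cKO these 3 and the chemokine gene Ccl6 rose, where 0.0634% of all genes did, with a list median of 0.83. All 4 lost the call with any 1 of the WT, cKO or WT/AD libraries left out (adjusted p between 0.0756 and 0.406) and with the cKO/AD and cKO libraries alone (adjusted p = 0.291 for each), and Apoe lost it with the replicate block (adjusted p = 0.0631). Lpl was at 2.57 (SE 0.216, adjusted p = 0.0137) and Ccl3 at 3.33 (SE 0.327, adjusted p = 0.022) there. In cKO/AD against WT/AD, 11 of the 40 fell and 2 rose, with a list median of -0.45 and, over all genes tested, 10.2% lower and 7.82% higher. Trem2, the receptor of the DAM switch, was at 56.7 ± 10.6 CPM in cKO/AD and 243 ± 4.69 CPM in WT/AD. Ctsd, the gene of lysosomal cathepsin D, fell by 1.95 on the log2 scale, and Ctsl, that of cathepsin L, by 1.49. The rises were those of Cadm1, an adhesion molecule gene, and Cybb, which encodes a subunit of the phagocyte oxidase. With the GC correction 6 of the 40 fell, where 2.83% of all genes did, and 4 rose, where 3.52% did. Trem2, Ctsd and Ctsl kept their falls (-1.03, -1.13 and -1.69), and Apoe turned sign (-0.71 and 1.02, adjusted p = 0.0317). The 4 corrected rises were those of Apoe, Cd74, Ctsz and Cadm1, while Cybb did not pass (0.39, adjusted p = 0.173). Lpl, Ccl3 and Ccl6, like Clec7a and Cd9, did not pass in cKO/AD against WT/AD (0.50, -0.13 and 0.23, adjusted p between 0.13 and 0.799).

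Binding partners and relatives of the members were examined in cKO/AD against WT/AD, where 10.2% of all genes tested were called lower and 7.82% higher. Of 10 cathepsins, other target proteases and cystatins, Ctsl, a target of cystatin F, fell and none rose. Of 13 partners and relatives of Clec7a and Itgax, Syk and Card9, which carry the dectin-1 signal, fell (-1.31, adjusted p = 0.0173, and -1.98, adjusted p = 0.0118) and the lectin receptor gene Clec5a rose. Among the 4 ligands and relatives of Axl, Pros1, which encodes protein S, a ligand of the Axl relatives Tyro3 and Mertk, rose (1567 ± 276 CPM in cKO/AD, against 677 ± 198 CPM in WT/AD) and the receptor gene Tyro3 fell. Of 12 other tetraspanins 4 fell and none rose, among them Tspan14, which helps traffic the protease ADAM10, at -1.77 (SE 0.242, adjusted p = 0.00689). Of 8 partners and regulators of Gpnmb and Lgals3, the transcription factor gene Mitf rose to 44.5 ± 2.73 CPM in cKO/AD, against 9.88 ± 0.0816 CPM in WT/AD, and 4 fell: its relatives Tfeb and Tfe3, the galectin gene Lgals9 and Lgals3bp. Of 8 Spp1 receptor genes, Cd44 rose (1.80, adjusted p = 0.024) and the integrin genes Itgb5 and Itga5 fell. Of 12 genes of the Igf1 receptor pathway, 4 fell and none rose: the binding protein genes Igfbp2, Igfbp4 and Igfbp7 and the adaptor gene Irs2.

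With the GC correction, Mitf (1.96, adjusted p = 0.0187), Tspan14 (-1.37, adjusted p = 0.0188), Itgb5 (-0.88, adjusted p = 0.0391) and Ctsl passed in the same direction. Cd44 (1.47), Card9 (-0.69), Syk (-0.88), Tyro3 (-0.47), Pros1 (0.52), Clec5a (0.10), Lgals9 (-0.97), Tfeb (-2.39), Itga5 (-0.76), Tspan33 (-0.78), Igfbp7 (-0.72), Igfbp4 (-0.45) and Igfbp2 (-0.03) kept their sign and did not pass. Tspan4 turned to 0.31 (adjusted p = 0.395). Of the 24 named genes of the DAM and partner lists past the threshold in cKO/AD against WT/AD, 8 passed with the GC correction (Apoe with its sign turned) and 19 with any 1 of the WT or cKO libraries left out. With WT/AD replicate 2 left out 8 passed, and with WT/AD replicate 1 left out, or with the cKO/AD and WT/AD libraries alone, 0 did.

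**Figure D4:**
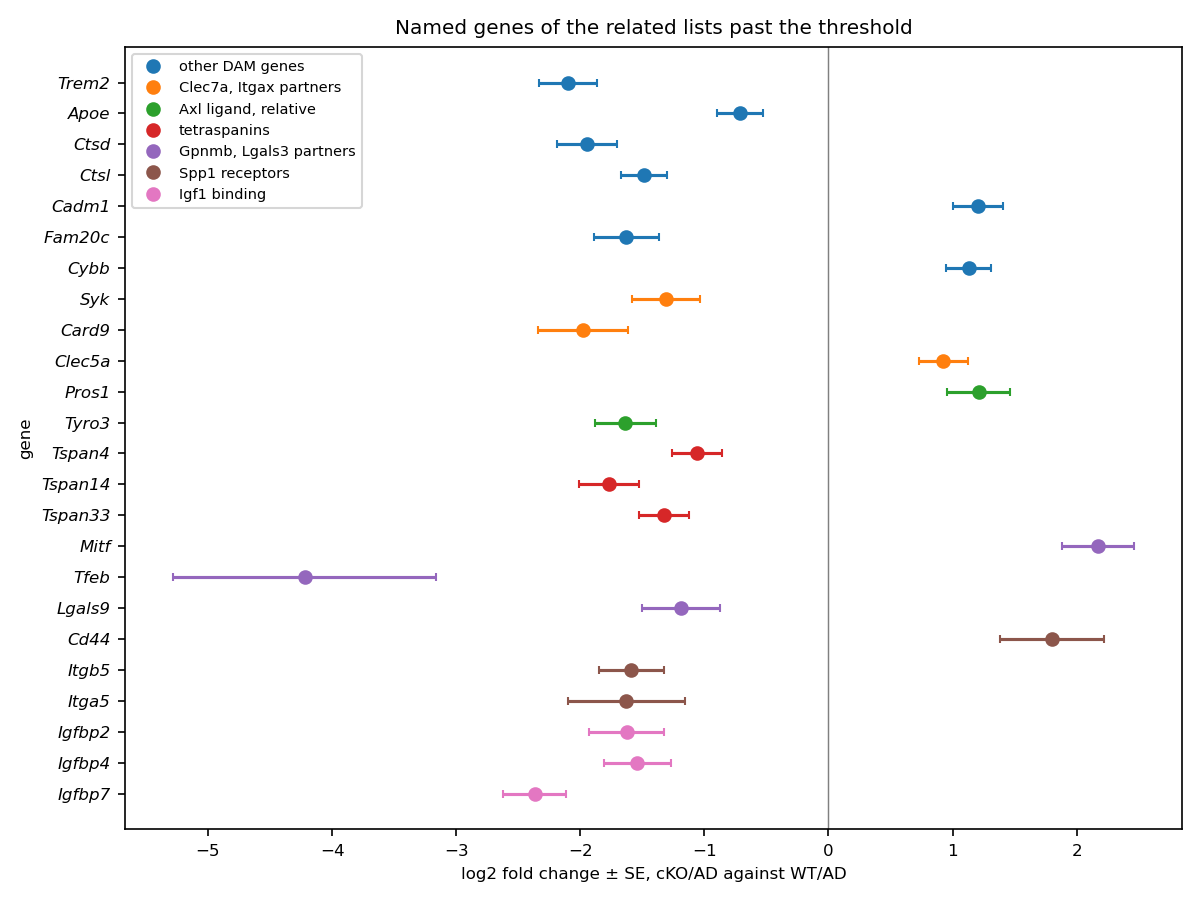
Log2 fold change ± SE (edgeR, cKO/AD against WT/AD) of the named genes of the DAM, partner and relative lists with an adjusted p under 0.05, coloured by list. Most lie below 0, with Mitf at 2.17 and Cd44 at 1.80 above it and Tfeb at -4.22 the lowest.

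Across the 8 libraries, the 5 genes outside the members whose log2 CPM was most correlated with that of Cst7, of 12553 genes considered, were Psat1 (r = 0.982), Ccl3 (0.971), Exosc5 (0.97), Tcea2 (0.96) and Apoe (0.958). The 8 points fall into AD and non-AD libraries, and these values share that split. Psat1, a serine synthesis gene, was at 84.1 and 84.0 CPM in cKO/AD, 80.9 and 103 CPM in the WT/AD libraries, 50.2 and 41.6 CPM in cKO and 39.1 and 41.6 CPM in WT. Of the members, Itgax (r = 0.964) and Clec7a (0.95) lay closest to Cst7 by the same measure, and Lgals3 (-0.02) furthest.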

How the data were processed

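Read counts of each gene, whole numbers in 8 columns with none unused, were made and deposited by the authors as a single table. The submitters' processing notes give mm9 as the build. For the aligner, the counter and the strand setting nothing is stated there. Overlapping genes and antisense partners may therefore share reads. Of 55421 gene IDs, 54673 matched GENCODE M21 (GRCm38) with their version, and that annotation gave the length and GC content of exons. No coordinates of the files were used. Promoter sequences came from RefSeq on GRCm38.p6.

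Groups followed the sample labels. Genes with low counts were removed with filterByExpr, which left 22089 genes and all 10 members. Counts were scaled by TMM (factors 0.873 to 1.11), and edgeR 4.0.16 (R 4.3.3) fitted its quasi-likelihood model to the 4 groups of all 8 libraries, with 4 residual degrees of freedom. The p-values of each of 5 comparisons were adjusted by Benjamini-Hochberg over all genes tested, with a threshold of 0.05. A standard error is the absolute log2 fold change divided by the square root of the F statistic. DESeq2 1.42.0, limma-voom (limma 3.58.1), other scalings and filters, a loess correction for GC content (span 0.4), a block on replicate number, the compared groups alone and each library left out were alternatives, 18 in all. The main edgeR fit was tested on simulated counts with known changes in WT/AD against WT. All libraries had the same simulated spread for a gene, so the wider spread of cKO/AD was not covered. The other comparisons and the alternatives were not tested in this way. Intervals for single counts were not needed, since each group had 2 libraries. Library totals were 18218165 to 25774587 counts. For a low gene such as Gpnmb, the cKO/AD libraries, at 95 and 503 counts, differed by far more than their totals did (20188506 and 22416026).

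The members and gene lists were chosen with earlier results of these data known. Besides Calhm2 and the members, named genes were up to 6 past the threshold per comparison from the list of other DAM genes, up to 3 from each partner list, smallest adjusted p first, and the 5 genes most correlated with Cst7 among those with a group mean of at least 5 CPM. Other genes past the threshold are named where 5 or fewer of a list passed or for the markers, chosen after their values were seen.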

Additional observations from a re-analysis of the deposited data

Results flagged for a closer look

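For 3 members the effect pointed one way in every library of one setting and the opposite way in every library of the other. Spp1 was higher in both cKO/AD libraries than in both WT/AD libraries, and lower in both cKO libraries than in both WT libraries; the deletion effect with AD minus that without was 1.54 on the log2 scale (edgeR interaction, SE 0.258, adjusted p = 0.0563). Cst7 was lower in both cKO/AD libraries than in both WT/AD libraries, and higher in both cKO libraries than in both WT libraries, a difference of -2.32 (SE 0.482, adjusted p = 0.0642). Lgals3 was lower in both cKO/AD libraries than in both cKO libraries, and higher in both WT/AD libraries than in both WT libraries; its disease effect with Calhm2 deleted minus that with it intact was -1.62 (SE 0.599, adjusted p = 0.174). None of the 3 passed the threshold. With a correction for GC content the Lgals3 value was -0.58 (adjusted p = 0.593), with disease effects of -0.30 with Calhm2 deleted and 0.28 with it intact. Over all genes tested, 10.1% had opposite deletion effects by the same criterion, and 19.4% opposite disease effects. The groups of 2 libraries were too small for a test of single outlying libraries.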

How the results depend on the processing

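Counts of members past the threshold moved as follows. For WT/AD against WT, 2 passed, against 7 with DESeq2, 8 with no filter on low counts, 9 with only the groups compared and 1 with the replicate block, which lost Clec7a; leaving out 1 library gave 0 to 9. For cKO/AD against cKO, 3 passed, against 9 with DESeq2, 5 with limma-voom, 9 with no filter, 5 with a stricter filter and 0 with only the groups compared; leaving out 1 library gave 0 to 9. For cKO/AD against WT/AD, 4 passed, against 0 with the GC correction, 1 with the GC correction and replicate block (Cst7) and 0 with only the groups compared; leaving out 1 library gave 0 to 7. For cKO against WT, 0 passed, against 1 with DESeq2 and 1 with no filter; leaving out 1 library gave 0 to 1. For the interaction, 0 passed, against 2 with DESeq2, 1 with limma-voom, 3 with no filter and 1 with a stricter filter; leaving out 1 library gave 0 to 7. Calls over all genes moved too. DESeq2 called 275 of 10098 genes higher in WT/AD against WT and 1436 of 20376 in cKO/AD against cKO. With no filter these were 149 and 1123 of 34788, and the interaction had 1070 higher and 1600 lower. In cKO against WT, 50 were higher with no filter. In cKO/AD against cKO limma-voom called 73 of 22089 higher, and the stricter filter 96 of 18051. The stricter filter also called 96 of 18051 higher in the interaction. The replicate block called 1 of 22089 higher in WT/AD against WT. In cKO/AD against WT/AD the GC correction with the block called 544 of 22089 lower. With only the groups compared, 0 genes were called in cKO/AD against cKO and 0 in cKO/AD against WT/AD. The cause of these moves was not tested. Same-numbered libraries did not deviate together (correlations of -0.0334 to 0.0611 between groups), so the numbers are not taken as pairs; the block changed no other call of a member.

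Log2 fold changes turned sign in cKO/AD against WT/AD with the GC correction, without and with the block, for Clec7a (-0.75 and -0.75), Axl (0.15 and 0.14), Apoe (1.02 and 1.01) and Tspan4 (0.31 and 0.30). In the interaction they did so for Clec7a (-0.11 and -0.11), Axl (0.45 and 0.44) and Cd9 (-0.16 and -0.17), and for Cd9 without TMM (-0.11). With 1 library left out, cKO/AD against WT/AD ranged from -0.046 to 0.30 for Clec7a, from -0.30 to 0.027 for Cd9 and from -0.13 to 0.55 for Cd63. The Cd9 interaction ranged from -0.058 to 0.29. In cKO against WT the ranges were -0.0045 to 0.72 for Itgax, -0.54 to 0.082 for Gpnmb and -0.23 to 0.85 for Igf1. Library size without TMM moved the median of all genes in cKO/AD against cKO to -0.35, that in cKO against WT to 0.13 and that of the interaction to -0.37. Each group had 2 libraries, and the cKO/AD libraries were unlike each other. In cKO/AD against WT/AD the standard error was largest for Gpnmb (0.616), then Igf1 (0.538), Lgals3 (0.438) and Itgax (0.408).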

Other observations

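Markers of 4 other cell types were summed too. Monocyte markers stood at 95.9 to 116 CPM in cKO/AD, 63.2 to 78.5 CPM in WT/AD, 101 to 109 CPM in cKO and 130.1 to 133 CPM in WT. Dendritic cell markers, which matter for Itgax, stood at 65.1 to 89.6 CPM in cKO/AD, 47.6 to 59.7 CPM in WT/AD, 54.6 to 57.9 CPM in cKO and 50.5 to 58.6 CPM in WT. Xcr1, Clec9a or Ccr7 was at 0 in 6 of the 8 libraries. In cKO/AD against WT/AD, 3 of the 6 tested had a positive and 3 a negative fold change, with a median log2 fold change of -0.41. Astrocyte markers stood at 957 to 1099 CPM in cKO/AD, 1185 to 1363 CPM in WT/AD, 995 to 1005 CPM in cKO and 1633 to 1754 CPM in WT. Neuron markers stood at 1573 to 1873 CPM in cKO/AD, 1329 to 1349.8 CPM in WT/AD, 1600.0 to 1763 CPM in cKO and 1442 to 1467 CPM in WT. Of these 9 markers, 6 had a negative and 3 a positive fold change in cKO/AD against WT/AD, with a median log2 fold change of -0.54.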
